A study of Mus musculus with 703 samples.

Results

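The circadian clock genes described here are the 10 rows of the deposited gastrocnemius table whose symbol is Arntl, Clock, Per1, Per2, Per3, Cry1, Cry2, Nr1d1, Nr1d2 or Dbp, out of 19088 genes in that table. The members were chosen by name, with earlier results of these data known. Bulk RNA sequencing was performed on gastrocnemius, a calf muscle, of 352 female and 351 male mice from 20 CC-RIX strains, with 1 library per animal. A strain is made by crossing 2 inbred lines of the Collaborative Cross, so that animals of a strain and sex share a genotype. Food with 10% or 44% fat, both labelled as fat + fiber, was given to females and males from 6 weeks. Treated animals drank metformin at 5 mg/mL from 7 months. Cohorts were collected at 6 and 12 months. No label gives an animal's age, and a drug begun at 7 months reaches only the older cohort, so metformin and age cannot be told apart here.

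The 8 groups were defined by sex, diet and treatment. Untreated animals were 236 females and 233 males, of which 234 were on 10% fat and 235 on 44% fat, each diet with the sexes in near-equal number. Metformin was given to 57 females and 59 males on 10% fat and to 59 females and 59 males on 44% fat. Library identifiers fell into a lower range (400 untreated and 144 treated animals) and an upper range (69 untreated and 90 treated). The numbers in the sample titles came in 41 runs of near-consecutive numbers, separated by gaps of more than 25, with 5 to 29 animals and 1 to 7 strains in a run. The labels do not say what a run is. The mice were kept in a light/dark cycle, and the sources used here do not give the hour at which a muscle was collected.

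Total counts per library lay between 27.4 M and 96.1 M, with a median of 47.9 M. The 6 skeletal muscle markers together held 80722 to 152176 CPM in every library, CPM being counts scaled to a library total of 1 M. The 15 libraries whose Xist level went against the sex label were kept. Leaving them out changed no call among the clock genes for strain, sex, diet, metformin or identifier range. The other tests, the correlations and the components were not repeated without them.

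The mammalian clock is a feedback loop of transcription that runs in nearly every cell, skeletal muscle included. ARNTL (BMAL1) and CLOCK form a dimer that binds E-box elements and activates the Per and Cry genes, Nr1d1, Nr1d2 and Dbp. PER and CRY proteins accumulate and repress the dimer, while NR1D1 and NR1D2 (REV-ERB alpha and beta) repress Arntl through ROR elements, which puts Arntl in antiphase to the genes its product activates. DBP is a transcription factor of the PAR bZIP family that carries the rhythm to output genes with D-box elements. A muscle collected once shows 1 point of each gene's cycle, so differences in phase between animals appear as genes that are high or low together.

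The activators differed in how widely they varied. Arntl (chr7:113207465-113314122 in GRCm38, plus strand) ranged from 2.59 to 48.8 CPM over all animals with a median of 11.4. Clock (chr5:76209868-76304792, minus strand) ranged from 16.2 to 68.4 CPM with a median of 43.6. The upper quartile of the animals stood 2.05-fold above the lower quartile for Arntl and 1.31-fold for Clock.

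The Per genes encode the rhythmic part of the repressor. Per1 (chr11:69095217-69109960, plus strand) ran from 4.67 to 118.2 CPM with a median of 27.5. Per2 (chr1:91415982-91459324, minus strand) ran from 0.917 to 28.2 CPM with a median of 12.2. From the lowest to the highest single animal this was a 30.8-fold range, the widest of the members. Between the 5th and 95th percentiles of the animals Per1 was the widest at 6.40-fold, with Per2 at 6.18-fold. Per3 (chr4:151003652-151044665, minus strand) ran from 5.99 to 62.8 CPM with a median of 24.7. The Cry genes, whose products are the main transcriptional repressors of the loop, varied much less. Cry1 (chr10:85131702-85185054, minus strand) lay between 6.40 and 23.3 CPM with a median of 12.0, and Cry2 (chr2:92403646-92434043, minus strand) between 16.9 and 60.9 CPM with a median of 33.2.

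Nr1d1 (chr11:98767932-98775333, minus strand) lay between 22.1 and 194 CPM with a median of 104.5. Nr1d2 (chr14:18204054-18239127, minus strand) lay between 68.1 and 158 CPM with a median of 113.7. As a ratio of highest to lowest this was 2.32-fold, the narrowest of the members. Dbp (chr7:45705247-45710203, plus strand) ranged from 4.07 to 122 CPM with a median of 33.8, a 30.1-fold range close to that of Per2.

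Levels were compared between genes as CPM per kilobase of exon. Nr1d1 stood highest with a median of 33.97, followed by Nr1d2 at 21.01 and Dbp at 11.3, and the quartiles of these 3 did not overlap those of the gene below. Cry2 at 5.25, Per1 at 4.88, Cry1 at 3.60, Clock at 3.17, Per3 at 2.57, Per2 at 2.09 and Arntl at 1.52 followed in that order. Each of these 7 overlapped its neighbour in the order within the quartiles.

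**Figure D1:**
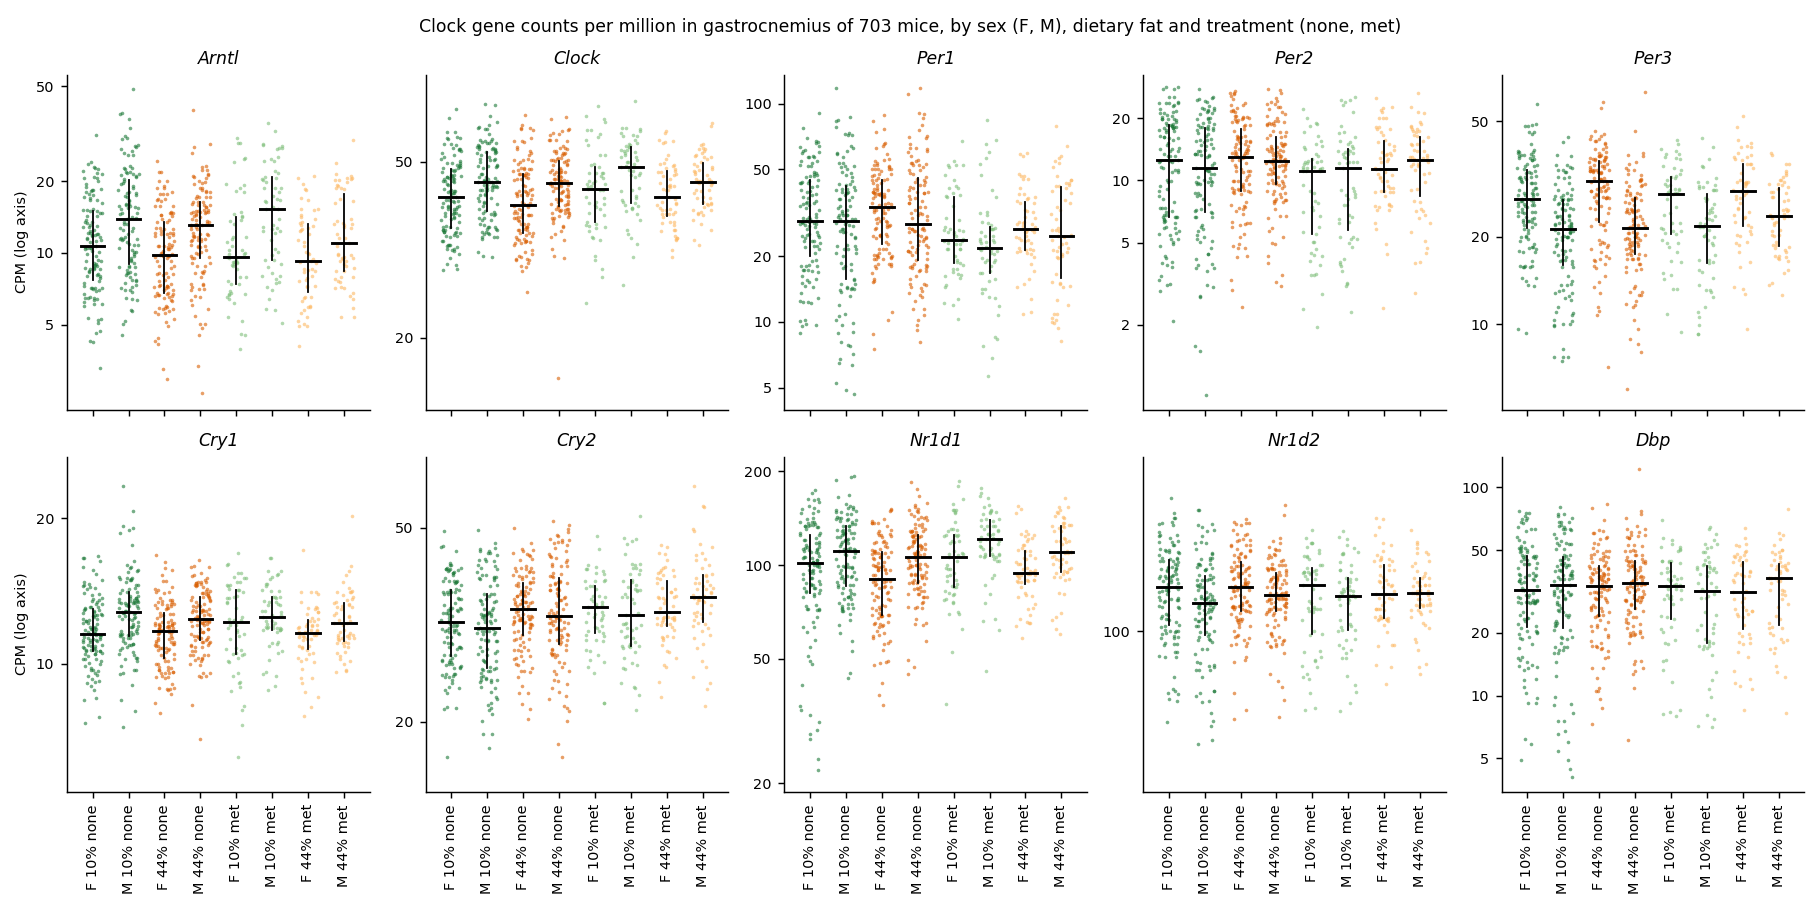
CPM on a log axis for each clock gene in the 8 groups of sex, dietary fat and treatment, with 1 point per animal, a horizontal bar at the group median and a vertical bar over the quartiles. All groups overlap for every gene, and the spread within a group exceeds the distance between group medians.

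Promoter sequences show where elements of the loop lie in the members that hold one. RefSeq windows of GRCm38.p6, from 250 bases before to 50 after a transcription start, were searched on both strands for the E-box CACGTG, the variant E-box CACGTT, the D-box TTATGTAA, the variant D-box TTATGCAA and the ROR element TAGGTCA. The table held 13 promoters of 9 members, and Per2 is not in it. In 6 members a motif was found, and no motif overlapped another. The stretches that hold them are shown 5′ to 3′ on the strand of the gene with the motif in capitals, where AACGTG is CACGTT read on the other strand. They lie at chr7:113207530-113207558 for Arntl, chr11:69098768-69098947 for Per1, chr4:151044801-151044885 for Per3, chr10:85185094-85185148 for Cry1, chr2:92434215-92434250 for Cry2 and chr11:98775385-98775420 for Nr1d1.
Arntl: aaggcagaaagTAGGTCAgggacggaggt
Per1: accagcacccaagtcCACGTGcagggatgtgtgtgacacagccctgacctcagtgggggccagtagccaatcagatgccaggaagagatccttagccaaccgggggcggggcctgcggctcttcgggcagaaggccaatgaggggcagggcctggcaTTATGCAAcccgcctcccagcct
Per3: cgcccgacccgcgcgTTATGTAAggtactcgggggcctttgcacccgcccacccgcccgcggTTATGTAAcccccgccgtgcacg
Cry1: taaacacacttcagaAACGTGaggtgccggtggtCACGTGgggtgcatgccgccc
Cry2: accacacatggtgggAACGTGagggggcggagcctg
Nr1d1: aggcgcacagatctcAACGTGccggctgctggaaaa

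Arntl held the ROR element 30 bases after 1 of its 2 starts. Per3 held the D-box at 2 places, 205 and 158 bases before its start. Per1 held an E-box 166 bases and a variant D-box 24 bases before 1 of its 2 starts. Cry1 held the variant E-box and the E-box 79 and 60 bases before its start. Cry2 and Nr1d1 each held the variant E-box, 166 and 28 bases before the start. Among all 32851 windows of this length, CACGTG was present in 7.15%, CACGTT in 4.68%, TTATGTAA in 0.94%, TTATGCAA in 0.74% and TAGGTCA in 2.61%. None of the letters searched was in the windows of Clock, Nr1d2 and Dbp. These matches describe the sequence only.

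Covariation between animals was measured on the residuals of log2 CPM after strain, sex, diet, treatment and identifier range were fitted. Age, which no label gives, and title run were not in this fit, so differences of age and run can remain in it. The first gene of the loop and the last moved in opposite directions. Arntl and Dbp had a Pearson r of -0.77 and a Spearman rho of -0.77 over all animals, and r was -0.77 again without the 2 animals farthest from the median of Arntl. With 100000 resamples the two-sided permutation p was 1e-05, the smallest these permutations can give (adjusted p = 1.32e-05 over the 45 pairs of members). In all, 40 of the 45 pairs passed by r at an adjusted p under 0.05 (41 by rho), 19 with a positive and 21 with a negative r. Animals of a run share more than the fitted terms, so they are not fully independent in this test.

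The sizes of the correlations set these genes apart from typical pairs. The median absolute r was 0.42 over the 45 pairs and 0.07 over all pairs of the 17740 genes tested. An absolute r above 0.5 was reached by 17 pairs, which is 37.8% of the pairs of members, against 0.480% of all gene pairs.

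Genes fell into a side with Arntl and a side with Dbp. Arntl rose with Clock, its partner in the dimer, at r = 0.70, and with Cry1 at r = 0.33 and Nr1d1 at r = 0.32. It ran against Per2 at r = -0.71, Per3 at r = -0.69, Nr1d2 at r = -0.65 and Cry2 at r = -0.47. On the other side, Dbp rose with Nr1d2 at r = 0.73, with Per3 at r = 0.67, with Per2 at r = 0.66 and with Cry2 at r = 0.52. Per2 and Nr1d2 had r = 0.69. Each of these pairs had an adjusted permutation p of 1.32e-05.

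The members of a family did not move as one. Nr1d1 and Nr1d2, which encode closely related repressors, had r = -0.06 (adjusted p = 0.146, permutation test), a pair that passed by rho at -0.09 (adjusted p = 0.0158), and Nr1d1 had r = 0.00 with Dbp (adjusted p = 0.96, permutation test). Nr1d1 rose with Clock at r = 0.44 and ran against Per2 at r = -0.46. Per1 rose with Per2 at r = 0.44 but had r = 0.05 with Per3 (adjusted p = 0.203, permutation test), while Per2 and Per3 had r = 0.58. Per1 with Clock (r = 0.00) and Per3 with Nr1d1 (r = -0.04) were the other pairs that did not pass by r. Cry1 and Cry2 ran weakly against each other at r = -0.12 (adjusted p = 0.00123, permutation test).

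The sides of Arntl and Dbp were present in both identifier ranges. By r, within the lower range 40 pairs passed and within the upper range 32 passed. Arntl and Dbp had r = -0.77 in the lower and r = -0.73 in the upper range, and Arntl and Per2 had r = -0.70 and r = -0.78. The pairs of Per1 differed most in value. Per1 and Cry2 had r = 0.24 in the lower and r = -0.09 in the upper range (adjusted p = 0.324 in the upper, permutation test), and Per1 and Cry1 had r = -0.23 and r = 0.07 (adjusted p = 0.499 in the upper, permutation test). Both pairs had passed over all animals, and the differences between the ranges were not tested. Per1 and Dbp had r = 0.29 in the lower range and r = 0.07 in the upper. With title run also in the fit 41 pairs passed by r and 41 by rho. Of those by r, 40 had also passed without run in the fit. With no terms fitted 44 passed by r and 41 by rho. Of those by r, 39 had also passed with the terms fitted.

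**Figure D2:**
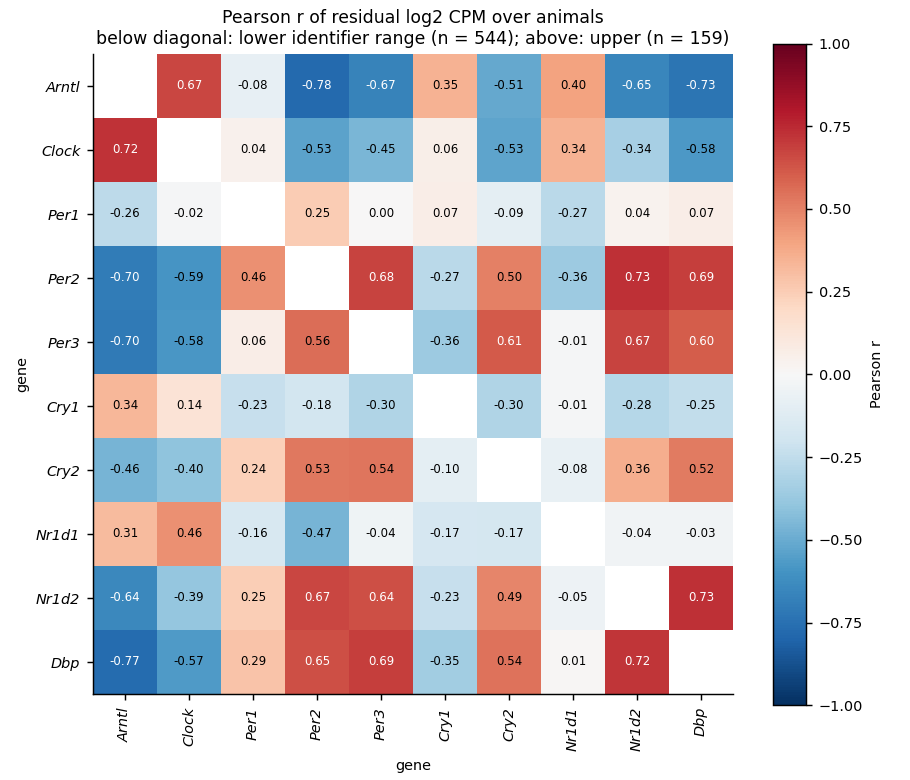
Pearson r between each pair of clock genes over animals, from residual log2 CPM, with the lower identifier range (n = 544) below the diagonal and the upper range (n = 159) above it, coloured from blue at -1 to red at 1. Arntl and Clock are positive with each other and negative with Per2, Per3, Nr1d2 and Dbp in both ranges, while the rows of Per1 and Nr1d1 hold values near 0.

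A single axis described about as much as all other directions together. The first principal component of the 10 standardised residuals took 48.8% of their variance and the second took 13.99%. Dbp and Per2 (r = 0.86 with component 1 for both), Per3 and Nr1d2 (both 0.80), Cry2 (0.67) and Per1 (0.33) lay on one side. Arntl (-0.90), Clock (-0.73), Cry1 (-0.35) and Nr1d1 (-0.31) lay on the other side. Component 2 was mostly Nr1d1 (0.87) against Cry1 (-0.53).

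In the plane of the first 2 components most genes lay in 2 opposite directions, with Nr1d1 and Cry1 away from both. Cry2 stood at 0.756 degrees, with Nr1d2 at 15.5, Dbp at 16.3 and Per3 at 17.9 degrees beside it. Nr1d1 stood at 109.7 degrees, Clock at 158, Arntl at 178, Cry1 at 237, Per1 at 333 and Per2 at 344 degrees. An angle is a place in this plane and not an hour. The loadings of component 1 in the lower and upper ranges had r = 0.99 across the 10 genes, and those of component 2 had r = 0.78, a description in which genes are not independent. Per1 moved furthest between the ranges, from 359.6 degrees in the lower to 277.5 in the upper.

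**Figure D3:**
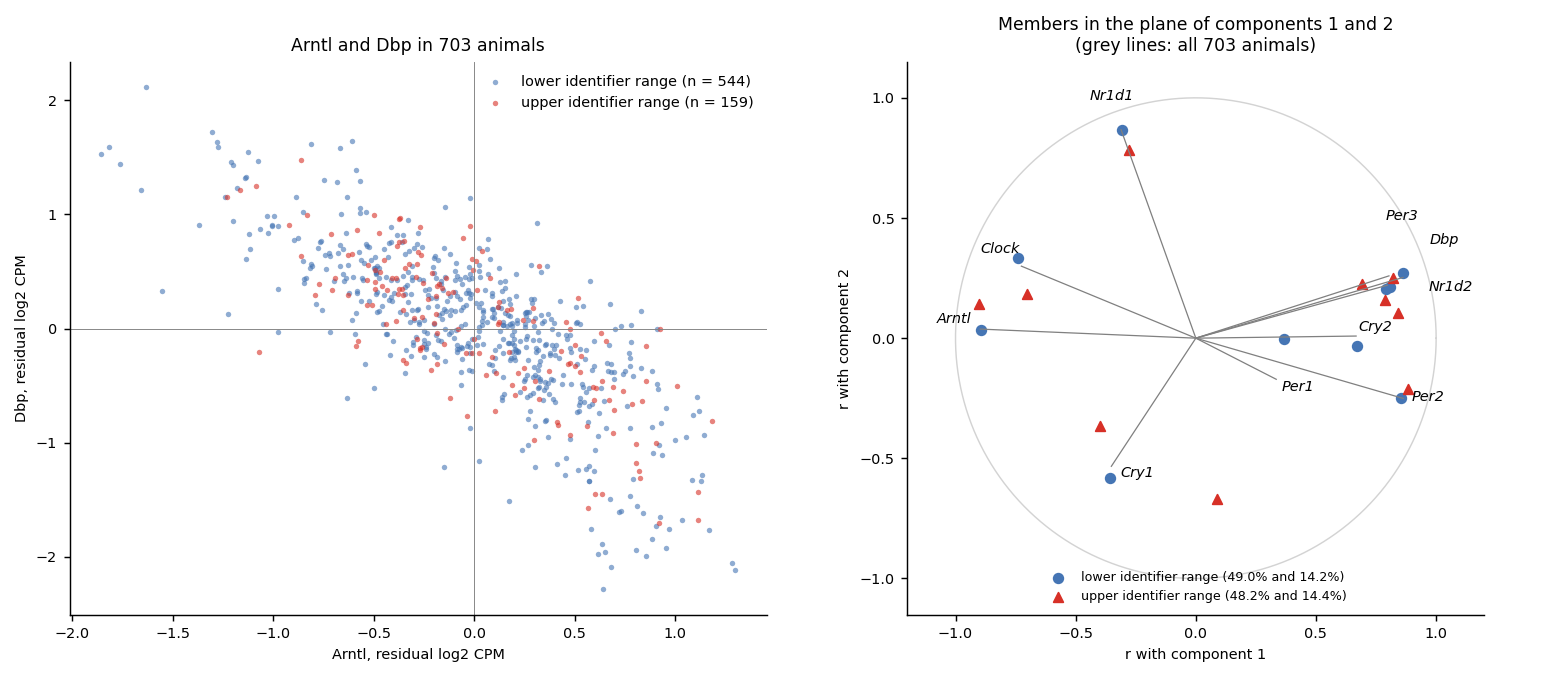
Left, residual log2 CPM of Arntl on the x axis and of Dbp on the y axis in each animal, coloured by identifier range; right, the Pearson r of each clock gene with component 1 on the x axis and component 2 on the y axis, as grey lines for all animals, circles for the lower and triangles for the upper range. Animals high in Arntl are low in Dbp in both ranges, and 5 genes, Per2, Per3, Cry2, Nr1d2 and Dbp, point to the right, opposite to Arntl and Clock.

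The share of variance between animals that each term of the design took was given as partial omega squared of log2 CPM, which is 0 when a term explains no more than chance and can fall slightly below 0. Strain took a median of 20.9% over the clock genes, against 15.7% over all genes tested. Nr1d2 (30.1%), Cry2 (29.5%), Per2 (29.3%) and Arntl (29.2%) had the higher shares, and Cry1 (11.7%) had the lowest. Sex took a median of 3.08% over the members and 1.73% over all genes, diet 0.925% and 0.107%, treatment 0.112% and 0.0673%, and identifier range 0.517% and 0.158%.

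Title run took far more than any term but strain. With title run in place of identifier range, strain took a median of 17.5% over the clock genes and 11.2% over all genes tested. In that fit title run took 21.6% and 3.92%, so its median over the clock genes was above that of strain. The share was 29.1% for Arntl, 25.1% for Clock, 24.96% for Per3, 24.001% for Dbp, 22.9% for Per1, 20.4% for Per2, 19.3% for Nr1d1, 19.02% for Cry2, 15.8% for Nr1d2 and 6.79% for Cry1. Cry1 lay within the upper quartile bound of all genes, 7.15%, and the other 9 lay above the 95th percentile, Nr1d2 being the lowest of them at 95.7. The weights of component 1 were also put on standardised log2 CPM from which no term had been removed. Of that sum, which is not the score itself, run took 25.4% and strain 22.8% in the same fit. Sex took 4.04%, diet 1.40% and treatment -0.127%. Runs hold few strains each, so strain and run share part of what they explain.

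**Figure D4:**
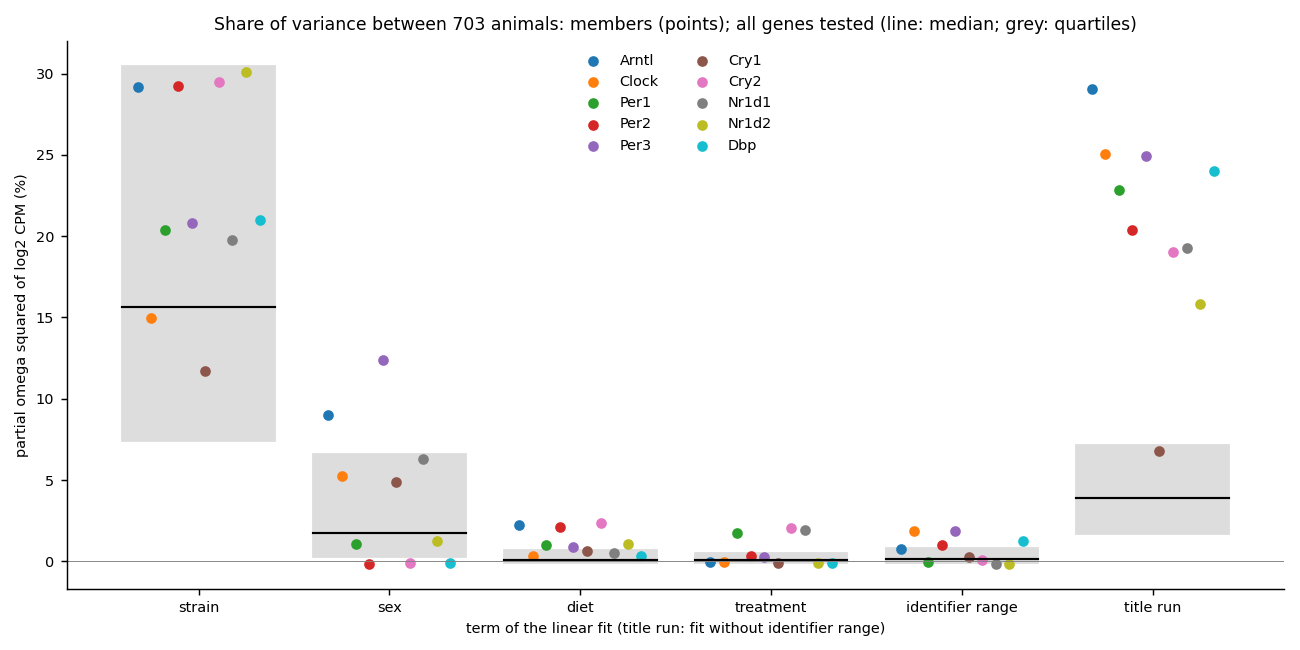
Partial omega squared in percent of each clock gene (coloured points) for 6 terms, with a grey box over the quartiles and a black line at the median of all genes tested. For strain the clock genes lie among other genes, while for title run 9 of the 10 lie above the grey box.

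Strain differences were tested in the untreated animals by edgeR's quasi-likelihood test with Benjamini-Hochberg adjustment over all genes tested, as were diet and sex. All 10 members passed for strain, as did 93.2% of all genes tested. The highest adjusted p among them was 1.95e-06, for Cry1. Strain medians differed most for Per1, by 3.12-fold, and least for Cry1, by 1.23-fold.

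One strain sat at an end of the order for 6 members. The untreated animals of (CC075/UncJ x CC042/GeniUncJ)F1 (n = 24) had the highest median of Arntl, Clock and Cry1 and the lowest median of Per2, Nr1d2 and Dbp. Arntl in this strain ran from 6.97 to 39.6 CPM with a median of 20.96, against 3.25 to 11.4 with a median of 7.29 in (CC030/GeniUncJ x CC002/UncJ)F1 (n = 24), the lowest strain. Dbp ran from 4.89 to 63.1 CPM with a median of 16.1 in this strain, against 13.2 to 71.6 with a median of 46.5 in (CC011/UncJ x CC005/TauUncJ)F1 (n = 26), the highest. For Dbp the end strains overlapped almost wholly, and for Arntl they overlapped in part. Every pair of the 6 members passed in the correlation test, so they are not 6 independent observations. The untreated animals of (CC075/UncJ x CC042/GeniUncJ)F1 came from 5 title runs, and run was not part of this comparison.

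Per1, which is also an immediate target of glucocorticoid and cyclic AMP signalling, had its own order of strains. It was highest in (CC024/GeniUncJ x CC002/UncJ)F1 (25.2, 56.2 and 117.3 CPM as lowest, median and highest, n = 24). It was lowest in (CC043/GeniUncJ x CC042/GeniUncJ)F1 (4.90, 18.01 and 43.3 CPM, n = 25), which also had the highest Nr1d1 (71.7, 136 and 194 CPM). For each of the members, strains were also put in the order of their medians. The means of all 19 neighbouring pairs then differed by less than the larger SD between animals of the pair. Neighbours in such an order lie close by construction, so this does not measure how far strains differ.

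Title runs differed for all 10 members, with adjusted p of 2.92e-05 for Cry1 and 6.24e-15 or below for the others (edgeR quasi-likelihood test with 40 terms in all animals). Of all 17740 genes tested, 63.2% passed as well. For Per2, the 10 animals of the run with the highest median lay between 21.2 and 27.6 CPM, and the 28 animals of the run with the lowest median lay between 2.44 and 12.8 CPM, so that these runs did not overlap. For Per1, the 6 animals of the highest run lay between 65.1 and 90.8 CPM and the 5 of the lowest between 9.15 and 23.4 CPM. For Dbp, 17 animals of the highest run lay between 44.8 and 83.6 CPM and 17 of the lowest between 8.98 and 37.01 CPM. These are the extreme runs of each gene, and runs differ in their strains as well.

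Within runs the clock genes changed with the place of a number, counted from 0 at the first to 1 at the last number of a run. Of the 10 members, 8 passed, 5 higher and 3 lower at the end of a run (edgeR quasi-likelihood test with strain, sex, diet, treatment and run in the fit). The share of all genes tested that passed was 6.29%, with 2.09% higher and 4.2% lower.

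Dbp rose most. It had 4.89, 29.8 and 74.3 CPM as lowest, median and highest in the 192 animals at a place up to 0.25, and 4.07, 36.4 and 78.9 CPM in the 199 at a place from 0.75. The fitted log2 difference between the ends was 0.58 ± 0.08 (SE, adjusted p = 1.83e-09), and Dbp rose in 31 of the 41 runs. Per2 at 0.44 ± 0.08 (adjusted p = 2.28e-05), Per3 at 0.39 ± 0.06 (adjusted p = 2.98e-09), Nr1d2 at 0.14 ± 0.02 (adjusted p = 1.23e-07) and Cry2 at 0.13 ± 0.03 (adjusted p = 0.00133) rose with it.

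Arntl fell. It had 3.25, 13.8 and 39.6 CPM at a place up to 0.25 and 2.97, 11.1 and 48.8 CPM from 0.75. The log2 difference was -0.47 ± 0.07 (SE, adjusted p = 6.77e-10), with a fall in 31 of 41 runs. Clock at -0.20 ± 0.03 (adjusted p = 1.3e-08) and Per1 at -0.34 ± 0.09 (adjusted p = 0.0032) fell too. Cry1 at -0.07 ± 0.03 (adjusted p = 0.192) and Nr1d1 at 0.00 ± 0.05 (adjusted p = 0.981) did not pass. Early and late animals overlapped over most of their range for every member.

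The change with place was present in both ranges but not of the same size. In the upper range alone, the log2 difference was 1.32 for Dbp, 1.06 for Per2 and -0.99 for Arntl, and in the lower range alone 0.35, 0.23 and -0.32. Per1 had the opposite sign in the upper range alone, at 0.25. The differences between the ranges were not tested. Per2 did not pass in the lower range alone (adjusted p = 0.188) or in untreated animals alone (adjusted p = 0.125). The score on component 1 rose with place in 28 of 41 runs. Run medians of this score lay between -1.49 and 2.19, against an SD of 2.21 over all animals.

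**Figure D5:**
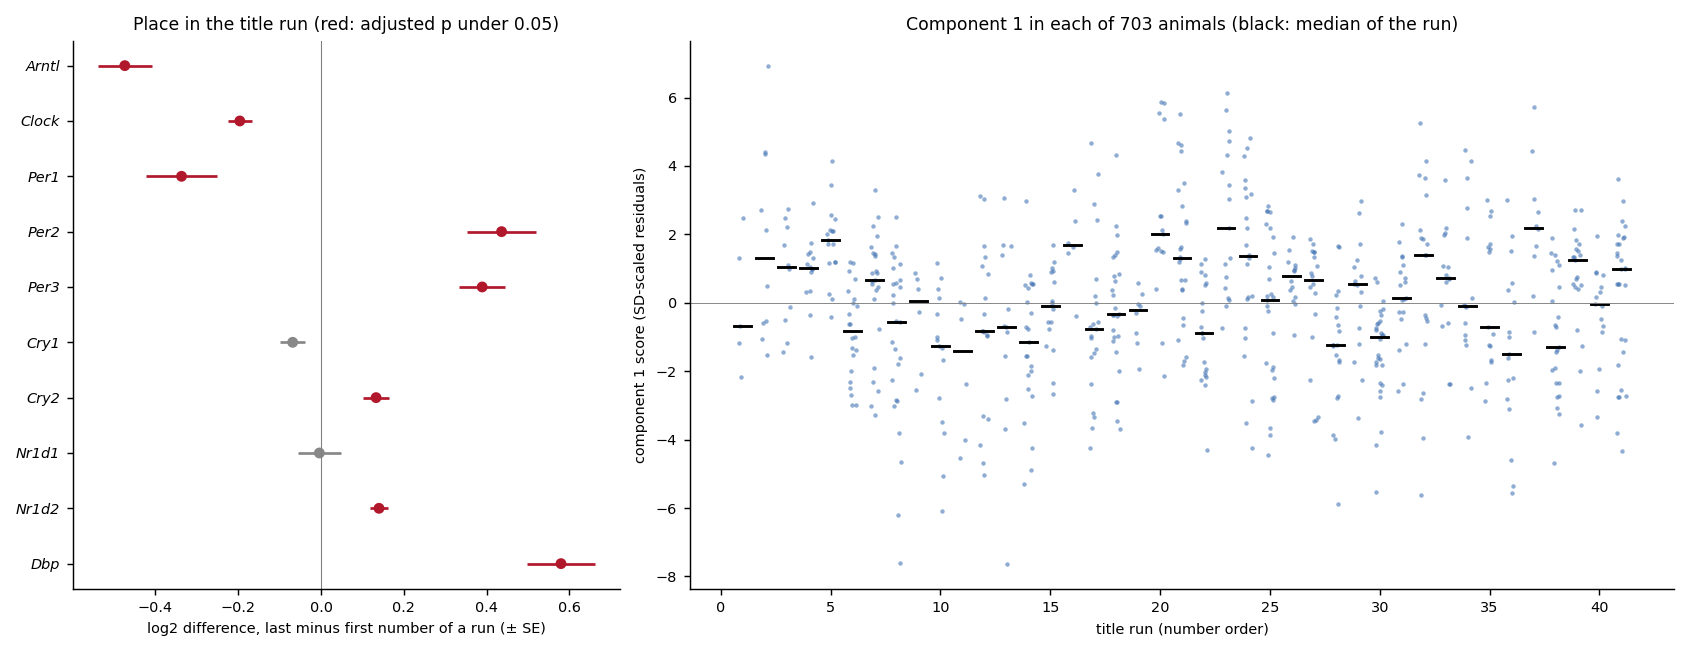
Left, the fitted log2 difference between the last and the first number of a run for each clock gene with its SE, red where the adjusted p was under 0.05; right, the score on component 1 of every animal by title run in number order, with a black bar at the run median. Dbp, Per2, Per3, Cry2 and Nr1d2 lie right of 0, Arntl, Clock and Per1 lie left of it, and run medians lie between -1.49 and 2.19 while single animals spread more widely.

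Males and females differed in 6 of the 10 members, where 65.3% of all genes tested passed, 29.5% higher and 35.7% lower in males. The size of the differences is given as log2 of male over female with its SE. Per3 was lower in males in all 20 strains. It had 7.12, 28.8 and 58.1 CPM as lowest, median and highest in 236 untreated females and 5.99, 21.4 and 62.8 CPM in 233 untreated males (-0.40 ± 0.04, adjusted p = 9.63e-18). Arntl was higher in males, with 2.97, 10.3 and 31.2 CPM in females and 2.59, 13.2 and 48.8 CPM in males (0.34 ± 0.05, adjusted p = 4.76e-10, higher in 18 of 20 strains). The sexes overlapped over most of the range in both genes.

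Nr1d1 at 0.20 ± 0.04 (adjusted p = 3.86e-07), Clock at 0.12 ± 0.02 (adjusted p = 5.17e-07) and Cry1 at 0.11 ± 0.02 (adjusted p = 1.92e-07) were also higher in males. Nr1d2 was lower at -0.06 ± 0.02 (adjusted p = 0.00173). Per1 at -0.08 ± 0.06, Per2 at -0.03 ± 0.06, Cry2 at -0.02 ± 0.02 and Dbp at 0.06 ± 0.06 did not pass. Clock, Cry1, Arntl and Nr1d1, which are the genes on the negative side of component 1, were thus the 4 higher in males, although only Per3 and Nr1d2 of the positive side were lower. Slow-fibre markers were lower in males as well, 5 of 5 with a median log2 difference of -0.70, as were 5 of 6 adipocyte markers, the other being higher (median -0.46). Of the temperature-responsive genes 8 of 8 were higher in males, and 5 of 6 skeletal muscle markers and 2 of 3 endothelial markers were too. Their part in these differences was not tested.

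Diet changed 2 of the 10 members, where 18.4% of all genes tested passed, 9.55% higher and 8.82% lower on 44% fat. Arntl had 3.28, 11.9 and 48.8 CPM on 10% fat (n = 234) and 2.59, 11.3 and 39.6 CPM on 44% fat (n = 235). Its log2 difference was -0.17 ± 0.05 (SE, adjusted p = 0.0106), lower in 15 of 20 strains. Cry2 had 16.9, 31.9 and 49.4 CPM on 10% fat and 16.9, 33.4 and 51.7 CPM on 44% fat, a log2 difference of 0.09 ± 0.02 (adjusted p = 0.0011), higher in 17 of 20 strains. The diets overlapped almost wholly for both. All 6 adipocyte markers passed with diet, 4 higher and 2 lower on 44% fat with a median log2 difference of 0.23, as did 2 of 3 endothelial and 2 of 5 slow-fibre markers, higher, and 2 of 6 skeletal muscle markers, lower. Their part in these calls was not tested. The other 8 had log2 differences between -0.06 (Nr1d1) and 0.12 (Per1), with adjusted p of 0.133 or more.

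The diet calls did not hold when runs were compared within themselves. With title run in place of identifier range, Arntl had -0.09 (adjusted p = 0.188) and Cry2 0.06 (adjusted p = 0.0562) by edgeR's quasi-likelihood test, where 14.6% of all genes passed. With run as a random effect in limma voom both passed, Arntl at an adjusted p of 0.0483 and Cry2 at 0.0033.

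Whether the diet difference depended on sex or strain was tested by interaction terms in edgeR. For diet by sex 0 members passed (0 at an unadjusted p under 0.05; 0 by limma voom), where 0.226% of all genes did. For diet by strain 0 passed (1 at an unadjusted p under 0.05, Dbp at 0.0389; 0 by limma voom), where 3.27% of all genes did.

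Metformin treatment, which comes with greater age in these animals, went with changes in 3 members, where 16.3% of all genes tested passed, 7.03% higher and 9.24% lower. Per1 was lower, with 4.67, 30.0 and 118.2 CPM in the untreated animals and 5.65, 24.3 and 84.5 CPM in 234 treated ones (log2 difference -0.22 ± 0.06, adjusted p = 0.00328, lower in 15 of 20 strains). Nr1d1 was higher, with 22.1, 100.3 and 194 CPM untreated and 35.9, 108.1 and 186 CPM treated (0.12 ± 0.03, adjusted p = 0.00558, higher in 15 of 20 strains). Cry2 was higher at 0.08 ± 0.02 (adjusted p = 0.00234, higher in 14 of 20 strains). The treated and untreated animals overlapped almost wholly.

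Of these, Per1 passed also in the 449 animals of the 24 runs that held both treated and untreated animals, with run in the fit (-0.25, adjusted p = 0.0147). There Cry2 at 0.03 (adjusted p = 0.779) and Nr1d1 at 0.07 (adjusted p = 0.552) did not pass, and 0.952% of all genes did. In the upper range alone Per1 had 0.07 (adjusted p = 0.963) by edgeR, where 0.00566% of all genes passed. Genes responsive to glucocorticoids, as Per1 is, were lower with metformin in 7 of 10 cases, among them Ddit4 at -0.76 ± 0.11 and Tsc22d3 at -0.22 ± 0.04, and their part in the change of Per1 was not tested.

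The metformin difference depended on strain for 7 of the 10 members, where 8.94% of all genes tested passed (edgeR quasi-likelihood test of the strain by treatment terms). The adjusted p was 0.000224 for Dbp, 0.00056 for Arntl, 0.000653 for Per3, 0.000808 for Cry2, 0.0111 for Clock, 0.013 for Nr1d1 and 0.0148 for Per2. Per1 (0.138), Nr1d2 (0.0908) and Cry1 (0.482) did not pass. With title run added to the fit in limma voom, an alternative chosen after the data were seen, 5 passed (2.07% of all genes), Dbp at an adjusted p of 1.2e-06, Arntl at 3.63e-06, Per3 at 0.00189, Per2 at 0.0274 and Clock at 0.0495, while Cry2 (0.173) and Nr1d1 (0.132) did not.

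In (CC009/UncJ x CC013/GeniUncJ)F1 (12 treated, 10 untreated) the treated animals were lower in Arntl, by a log2 difference of -0.85 ± 0.18 (SE), and higher in Per2 at 0.85 ± 0.20, Per3 at 0.70 ± 0.19, Dbp at 0.60 ± 0.23 and Cry2 at 0.44 ± 0.10. In (CC001/UncJ x CC042/GeniUncJ)F1 (12 treated, 24 untreated) the signs were the opposite, with Dbp at -1.21 ± 0.24, Per2 at -0.68 ± 0.27 and Arntl at 0.61 ± 0.22. These strains held the largest fall of Arntl and of Dbp, and in both of them Arntl moved against Per2 and Dbp. Treated animals of a strain came from 1 to 6 runs and untreated ones from 4 to 10, with 0 to 3 runs in common, so strain, treatment and run are entangled in these differences. Metformin by sex (1 member, Per3, at an unadjusted p under 0.05) and metformin by diet (1 member, Per2) gave 0 members past the adjusted threshold by edgeR (0 for each by limma voom), where 1.88% and 0.00564% of all genes passed.

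The identifier ranges differed in 5 members, where 26.2% of all genes tested passed, 14.4% higher and 11.8% lower in the upper range. Dbp had 4.07, 35.3 and 122 CPM in the lower and 6.57, 28.9 and 63.5 CPM in the upper range (log2 difference -0.33 ± 0.09, adjusted p = 0.00104). Per2 at -0.28 ± 0.08 (adjusted p = 0.00494) and Per3 at -0.21 ± 0.06 (adjusted p = 0.00194) were lower as well. Clock at 0.12 ± 0.03 (adjusted p = 0.000855) and Arntl at 0.19 ± 0.07 (adjusted p = 0.0261) were higher. With run as a random effect in limma voom, added after the data were seen, 3 passed (19.4% of all genes), while Arntl at 0.15 (adjusted p = 0.171) and Dbp at -0.25 (adjusted p = 0.0505) did not. Red blood cell (4 of 4), liver (4 of 6), macrophage (3 of 4), adipocyte (2 of 6) and Schwann cell markers (2 of 3) were higher in the upper range too. Slow-fibre (4 of 5), skeletal muscle (3 of 6) and endothelial markers (2 of 3) were lower. The part of these markers was not tested.

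Further genes of the clock followed the members in part. Of 15, the PAR bZIP genes Hlf (r = 0.69 with the score on component 1) and Tef (0.66), the repressor Ciart (0.63) and Bhlhe41 (0.30) had r above 0.3. Npas2, a homologue of Clock, and Nfil3, which competes with DBP at D-boxes, had -0.68 and -0.41. The other 9 lay between these limits. Of all 17740 genes, 0.502% had r above 0.3 and 1.03% below -0.3. With place in the run 6 of the 15 passed, 4 higher and 2 lower, with Hlf at 0.34 ± 0.04, Tef at 0.16 ± 0.02, Npas2 at -0.84 ± 0.12 and Nfil3 at -0.50 ± 0.07 as the 4 with the smallest adjusted p. Npas2 was scarce in this muscle, with a median of 0.724 CPM.

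Of 10 clock output genes, 5 had r above 0.3 with the score and 0 below -0.3, with Tspan4 at 0.61 and Usp2 at 0.54. With place, 4 of them passed, Tspan4 (0.30 ± 0.04) and Tcap (0.19 ± 0.04) higher and Coq10b (-0.29 ± 0.05) and Pdk4 (-0.44 ± 0.14) lower.

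Other groups of genes also changed with place in the run. Of 10 glucocorticoid-responsive genes 7 passed, all lower at the end, with Ddit4 at -1.38 ± 0.14 and Cdkn1a at -0.64 ± 0.08. Of 8 temperature-responsive genes 7 passed, 6 lower, among them the heat shock genes Hspa1b at -1.18 ± 0.15 and Hspa1a at -1.05 ± 0.13. Of 8 immediate early genes 5 passed, all lower. With the score on component 1 over all animals, 1 gene of these 3 lists had an absolute r above 0.3, the cell cycle inhibitor gene Cdkn1a at r = -0.38. With component 1 of the upper range alone, more genes went below -0.3, among them Cdkn1a (-0.48), Hspa8 (-0.42), Atf3 (-0.41) and Hspa1a (-0.38). In the lower range alone these had -0.35, -0.18, -0.22 and -0.16. The highest r of these lists in the upper range was 0.19, for Cirbp. The differences between the ranges were not tested, nor was the part of these lists in the change of the clock genes. Among the markers of muscle fibres and of other cell types, 1 passed with place, the adipocyte hormone gene Lep at -0.40 ± 0.12 (adjusted p = 0.0248). The r of all these markers with the score lay between -0.22 and 0.10.

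Among all genes but the members, list genes included, those most like the score on component 1 were sought over 10695 genes whose log2 CPM averaged 1 or more, of which 36 had an absolute r above 0.5 over all animals. The kinase genes Stk35 (r = 0.75) and Mylk4 (r = 0.74) were the most like on the side of Dbp, above Hlf and Tef. On the side of Arntl were Fam73b (r = -0.66), the mitochondrial carrier Slc25a36 (r = -0.65) and the monocarboxylate transporter family gene Slc16a9 (r = -0.64). The correlations share libraries and their depth, and depth itself had r = -0.06 with the score.

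Single members had different nearest genes. Per1 was most like Tob2 (r = 0.81), Arrdc2 (r = 0.79) and Slc25a25 (r = 0.77). Dbp was most like Ciart (r = 0.71), Per2 was most like Usp2 (r = 0.70), and Clock was most like Ptpn4 (r = 0.70). Arntl was most like Zhx2 (r = 0.67), Per3 most like Stk35 (r = 0.67) and Nr1d2 most like Hlf (r = 0.65). The nearest genes of Cry2 (Mylk4, r = 0.54) and Nr1d1 (Fam63a, r = 0.50) were less close.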

How the data were processed

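By the study's methods, the authors pooled the reads of both ends, aligned each as a single read to the transcripts of the founder genomes and assigned them by expectation maximisation, so that both ends of a fragment can count, and the deposited values used for the tests are estimated counts (expected counts) per gene, given as whole numbers on GRCm38 gene models. A deposited table of the same genes after the authors' variance-stabilising transformation, on a scale close to log2, was used as an alternative. Of the 19088 identifiers, 19003 are in GENCODE M21, which gave exon lengths. The aligner settings were not given in the sources used here.

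Groups came from the labels. Counts were tested with edgeR 4.0.16 in R 4.3.3 (TMM, filterByExpr, quasi-likelihood F tests), which kept 16384 genes in untreated animals and 17740 in all, and the dispersion trend was estimated on every 5th gene in order of abundance. Terms were strain, sex, diet and identifier range, with treatment in all animals, and title run in place of identifier range for run and place. The threshold for a call was 0.05 on the p adjusted after Benjamini-Hochberg over all genes tested. CPM used TMM factors, and log2 CPM a prior count of 2. Correlations were tested by 100000 two-sided permutations in Python 3.11.15, as written in the design with both r and rho. DESeq2 1.42.0, limma 3.58.1 (voom), other size factors, no filter, subsets of libraries and other run terms were alternatives. The tests of diet and of diet by sex, the shares of variance and the correlation test were checked on simulated data. The simulated animals held no run effects, and the other tests were not checked in this way. Nothing in the labels says whether spread between animals includes technical spread. The named genes were all members and, in each list, those called with the smallest adjusted p, up to 4, with the genes most like the members by r. Lep and Cdkn1a were named after their values were seen. The members and lists were chosen with earlier results of these data known. The gene most like Cry1 is not reported here.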

Additional observations from a re-analysis of the deposited data

Results flagged for a closer look

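The difference between treated and untreated animals varied between strains in 7 clock genes, by the interaction test of edgeR over the strain by treatment terms. The adjusted p was 0.00056 for Arntl, 0.0111 for Clock, 0.0148 for Per2, 0.000653 for Per3, 0.000808 for Cry2, 0.013 for Nr1d1 and 0.000224 for Dbp. The strain differences ran from -1.21 ± 0.24 to 0.65 ± 0.28 (log2, SE) for Dbp and from -0.85 ± 0.18 to 0.61 ± 0.24 for Arntl, with 9 strains above and 11 below 0 for Dbp and 10 on each side for Arntl. For Nr1d1 the treated animals were higher in 15 of 20 strains, up to 0.74 ± 0.15. With title run added to the fit in limma voom, an alternative chosen after the data were seen, 5 members passed (2.07% of all genes).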

How the results depend on the processing

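Of the values recomputed under other settings, those of single genes and pairs kept their direction and their side of the threshold in 794 cases. They fell below it in 47, passed it in 11 and changed sign in 28. The count of correlated pairs, 40 by r and 41 by rho, lay between 32 and 44 by r under other settings. By rho it lay between 32 and 41. Of the pairs that passed by r under another setting, 32 to 40 had also passed by r in the main fit. The cause of a change below was not tested, except that the upper range alone holds fewer animals. No paired analysis was possible because every label gives the same replicate number, so that numbers pair no animals. Title run served as a block in the settings that name it.

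For diet, the count of 2 became 0 with title run in place of identifier range (2 at an unadjusted p under 0.05), 1 in the lower range alone and 0 in the upper range alone (0 at an unadjusted p under 0.05), by edgeR. In the upper range alone, sex gave 3, strain 6, metformin 0 (6 at an unadjusted p under 0.05) and metformin by strain 1. Metformin gave 1 with title run in place of identifier range and 1 in runs with treated and untreated animals. Identifier range gave 3 with run as a random effect. The share of treatment was 2.84% in the upper range alone, and that of identifier range 1.36% in untreated animals. Component 1 took 49.02% in the lower range, 48.2% in the upper range and 47.1% with title run in the fit.

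Signs changed in values that had not passed, except for Per1 with metformin and with place and for the pairs of Per1 with Cry1 and Cry2. In the upper range alone, these were for sex Per2 at 0.10, Cry2 at 0.0088 and Dbp at -0.14 (log2), for metformin Clock at -0.039, Per1 at 0.072, Per2 at 0.27, Cry1 at -0.076, Nr1d2 at 0.066 and Dbp at 0.31, and for place Per1 at 0.25. For metformin, Arntl had 0.023 in the lower range alone, and Cry1 had -0.0055 with title run in place of identifier range, -0.0066 in runs with both kinds of animal and -0.0016 with run as a random effect. For identifier range, Nr1d1 had -0.00045 with no filter and Nr1d2 -0.0057 without the libraries against the sex label. For place, Nr1d1 had 0.020 in runs of at least 15 animals, 0.021 in untreated animals and 0.0039 in the lower range alone. The r of Nr1d1 with Dbp was 0.014 in the lower range, 0.063 in untreated animals and 0.035 with title run in the fit, and that of Clock with Per1 was 0.010 on the variance-stabilised scale, 0.040 in the upper range and 0.013 in untreated animals. Per1 had 0.066 with Cry1 and -0.094 with Cry2 in the upper range, and Per3 had 0.015 with Nr1d1 in untreated animals.

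Counts over all genes tested moved by more than 1.5 times in these cases. In the upper range alone they fell from 3009 to 305 for diet, from 10691 to 4018 for sex, from 15277 to 8611 for strain, from 2886 to 1 for metformin, from 11211 to 1163 for title run, from 1116 to 290 for place, from 3.27% to 0.657% of genes for diet by strain and from 1586 to 216 for metformin by strain, and diet by sex, metformin by sex and metformin by diet went from 37, 333 and 1 to 0. In the lower range alone diet by sex gave 14, metformin by sex 152 and metformin by diet 13. Metformin gave 172 with title run in place of identifier range, 166 in runs with both kinds of animal and 1921 with run as a random effect, and place gave 673 in untreated animals. By limma voom diet by strain gave 0.641% of genes, metformin by diet 0 and metformin by strain 506, or 368 with title run added.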
